A study of Homo sapiens with 8 samples.

Results

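The NRF2 antioxidant and NADPH genes are 9 genes that were taken by name from RNA-seq tables of Hep3B cells: the regulator pair NFE2L2 and KEAP1, and the NRF2 targets NQO1, HMOX1, GCLC, GCLM, TXNRD1, SRXN1 and ME1. All transcripts listed under a gene name were summed, and the 9 genes were found among 16169 gene names in either table. Hep3B is a human hepatocellular carcinoma (HCC) line. The 4 conditions, with libraries numbered 1 and 2 in each, were Hep3B, Hep3B SOX4-/-, Hep3B transfected with control siRNA (control si) and Hep3B transfected with siRNA against STAT6 (STAT6 si). SOX4-/- cells came from a pair of CRISPR/Cas9 lines and were kept in medium with puromycin, an agent not named for the other groups. The study gives its deposited RNA-seq data as coming from both numbered lines, and the labels number the libraries. No source used here says that these numbers match, so loss of SOX4, the state of a line and puromycin cannot be told apart. The total was 18484804 and 18123854 expected counts in Hep3B, 25353113 and 18924814 in SOX4-/-, 18096907 and 20272261 in control si, and 16266282 and 22037721 in STAT6 si. An expected count is a number of reads that a program assigns to a transcript, and it need not be whole.

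NRF2, the protein of NFE2L2, is a transcription factor that binds antioxidant response elements (AREs) together with a small MAF protein. KEAP1 holds NRF2 in the cytoplasm and presents it for degradation, and electrophiles or oxidants release it. Its targets supply glutathione, reduce thioredoxin and peroxiredoxins, remove quinones and heme, and produce NADPH, the electron donor of several of these reactions. NRF2 is controlled mainly at the level of protein stability, so the level of its transcript is not a measure of its activity.

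The ARE is the sequence that links most of these genes to NRF2, so its core was searched for on both strands as TGACNNNGC in 300 bases around the start sites of the genes (250 bases before and 50 after, from RefSeq, build GRCh38.p14). The table held 11 promoters of 8 of the 9 genes. It held none for HMOX1, so the promoter of HMOX1 was not searched. The core was found in 5 of these promoters, belonging to GCLM, ME1, TXNRD1 and KEAP1, and in 4687 of all 35116 promoters (13.3%). A match shows only that these letters are present. No match shows only that they are absent from these 300 bases, and sequence further from the start sites was not searched. The following stretches are read along the strand of the gene, with the core or its reverse complement in capitals. They are shown because TXNRD1 was called lower in the comparison below, because ME1 and GCLM stood apart between the Hep3B libraries, and because KEAP1 is the inhibitor of NRF2.
TXNRD1, upstream start site, core at -99 to -91 (chr12:104215670-104215698): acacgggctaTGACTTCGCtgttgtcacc
TXNRD1, upstream start site, core at -8 to 1 (chr12:104215761-104215789): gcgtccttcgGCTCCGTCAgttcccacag
TXNRD1, RefSeq start site further downstream, core at -102 to -94 (chr12:104286920-104286948): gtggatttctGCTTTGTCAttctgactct
ME1, core at -137 to -129 (chr6:83431170-83431198): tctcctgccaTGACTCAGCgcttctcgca
ME1, core at 12 to 20 (chr6:83431022-83431050): gctgcagtcaGCACCGTCAccccagcagc
GCLM, core at -34 to -26 (chr1:93909446-93909474): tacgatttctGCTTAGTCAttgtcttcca
KEAP1, core at -31 to -23 (chr19:10502784-10502812): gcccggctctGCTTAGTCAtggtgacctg
KEAP1, core at -54 to -46 (chr19:10502807-10502835): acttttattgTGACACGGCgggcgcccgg
Positions are counted from the RefSeq start site, which is base 1. The nearest transcript start in the deposited tables is the same for the upstream start of TXNRD1 but lies 350 bases upstream of the other TXNRD1 start site, 168 bases upstream for GCLM, 168 for ME1 and 34 for KEAP1. By these nearest starts, the cores of GCLM, ME1 and the further TXNRD1 site and the first core printed for KEAP1 lie after the start and not before it. The cores of GCLM and of the first KEAP1 stretch are the same 9 letters. The SOX motif AACAAAG was in 5.2% of all promoters and the STAT6 motif TTCNNNNGAA in 6.44%, and each was in 0 of the 11 promoters of these genes, which says only that these letters are not in those windows.

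The labels and the libraries were examined first. SOX4 had 728.8 and 249.5 CPM (read counts scaled to the library total, normalized by TMM over the 8 libraries) in Hep3B. It had 260.7 and 271.3 where the label is SOX4-/-, so its transcript gives no check of that label. Its log2 fold change was -0.83 (SE 0.54, Benjamini-Hochberg adjusted p = 0.372, edgeR quasi-likelihood F test). STAT6 differed between these groups, with 29.2 and 12.4 CPM in Hep3B and 2.42 and 1.98 in SOX4-/- (-3.18, SE 0.57, adjusted p = 0.0275 by the same test). Every direction below rests on the label, and SOX4-/- here and below means the libraries so labelled. STAT6 had 46.2 and 33.9 CPM in control si and 11.5 and 6.49 in STAT6 si, with the smallest p-value of the siRNA table (unadjusted p = 0.00834, adjusted p = 1 by the same test). All 10 hepatocyte markers examined, such as ALB and APOA1, were above 0 in all 8 libraries. Their summed level was 15370 and 11580 CPM in Hep3B, 46700 and 28950 in SOX4-/-, 17920 and 19010 in control si, and 20500 and 23300 in STAT6 si. ALB was the most abundant of them except in STAT6 si library 1, where it was SERPINA1. Among markers of other cells, the fibroblast list summed to 4.04 and 6.98 CPM in Hep3B and to 88.6 and 69.7 in SOX4-/-, mostly LUM (74.8 and 48.8), while COL1A2 and DCN were absent in both. It summed to 9.36 and 7.78 in control si and to 19.5 and 10.2 in STAT6 si. The leukocyte list summed to 81.7 and 32.2 CPM in Hep3B and to 163 and 392.4 in SOX4-/-, where LYZ was the most abundant gene, at 98.99 and 309.2, and CD3E and CSF1R were absent. It summed to 89.1 and 67.7 in control si and to 108 and 67.8 in STAT6 si, mostly CD68. Of the endothelial list only PECAM1 was above 0, at no more than 0.692 CPM. The part of these markers in the results below was not tested. In such bulk libraries, fewer cells of a type and less RNA per cell cannot be told apart.

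The libraries of a condition also differed from each other. The share of 14313 genes whose level differed by more than 1 on the log2 scale between libraries 1 and 2 was 23.3% in Hep3B, 13.1% in SOX4-/-, 34.2% in control si and 49.9% in STAT6 si. In the siRNA table the difference followed GC content (Spearman correlation across genes -0.739 in control si and -0.806 in STAT6 si, across genes that share libraries). It was 0.282 in SOX4-/- and -0.092 in Hep3B, yet several of the targets examined here stood far apart in Hep3B. Level differences between Hep3B library 2 and library 1 were 3.07 for GCLM, 2.66 for ME1, 2.26 for HMOX1 and 1.76 for SRXN1 on the log2 scale. Only 37 genes of 14313 (0.259%) differed more than GCLM, 68 (0.475%) more than ME1, 131 (0.915%) more than HMOX1 and 317 (2.21%) more than SRXN1 in that direction. GCLC was also higher in library 2, by 0.88, while KEAP1 (0.29), NQO1 (0.13) and TXNRD1 (-0.09) were close and NFE2L2 was lower (-0.84). The pair of Hep3B libraries therefore did not give one level of GCLM, ME1, HMOX1 or SRXN1, and these genes are described below with and without each library.

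**Figure D1:**
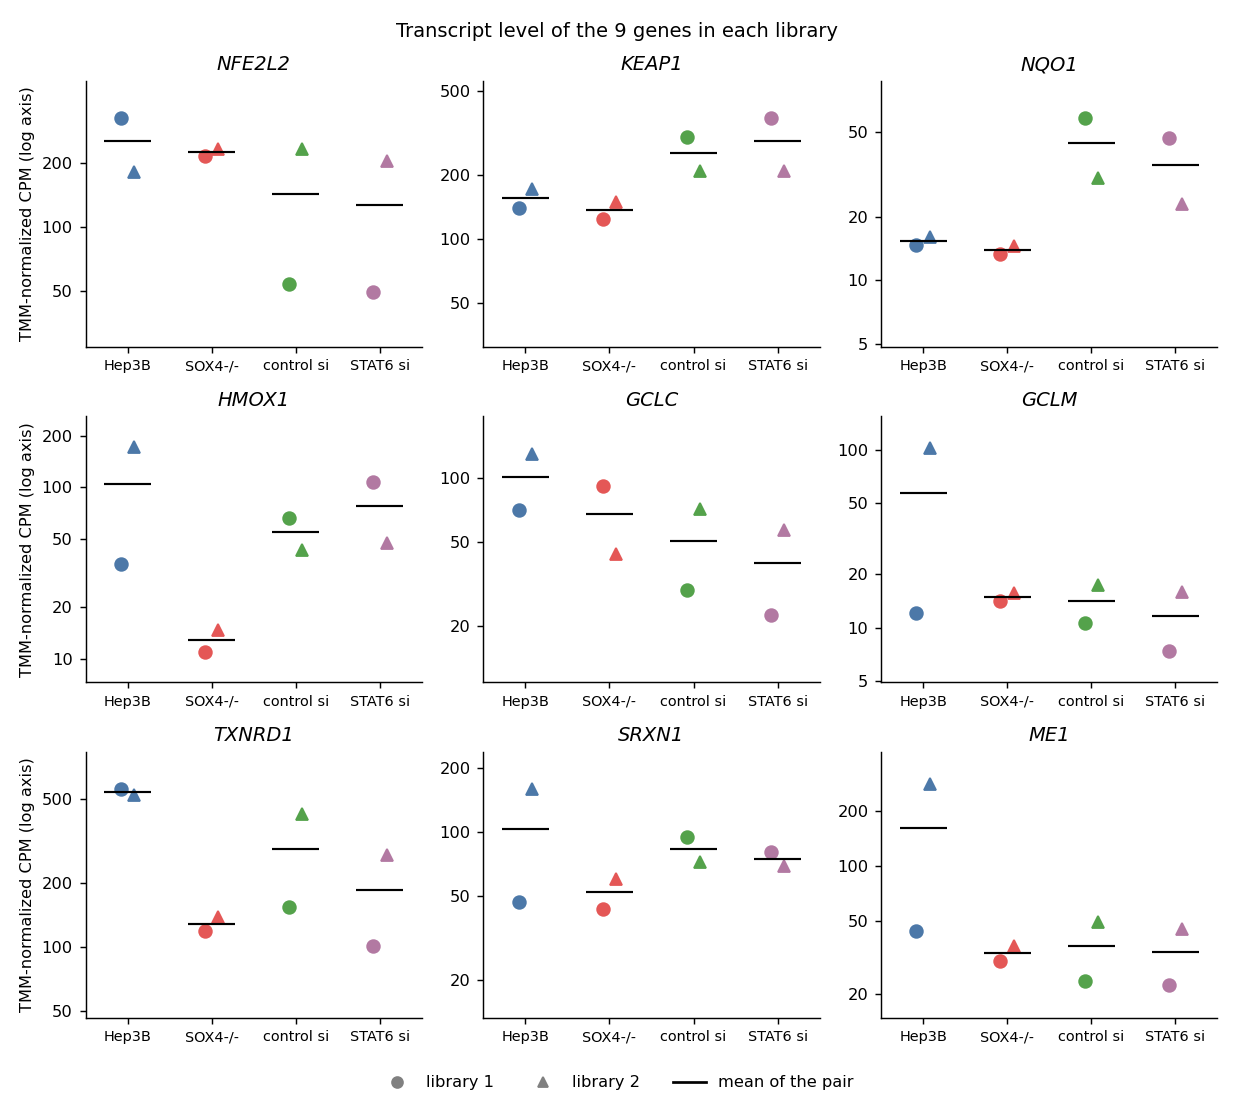
Level of the 9 genes in each of the 8 libraries, as TMM-normalized CPM on a log axis with its own range for each gene; circles are libraries numbered 1, triangles libraries numbered 2, and the bar is the mean of the pair. The SOX4-/- points of TXNRD1 (119.2 and 138.5) lie well below those of Hep3B (557.4 and 523.4), while GCLM, ME1, HMOX1 and SRXN1 stand out in a single Hep3B library.

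**Figure D2:**
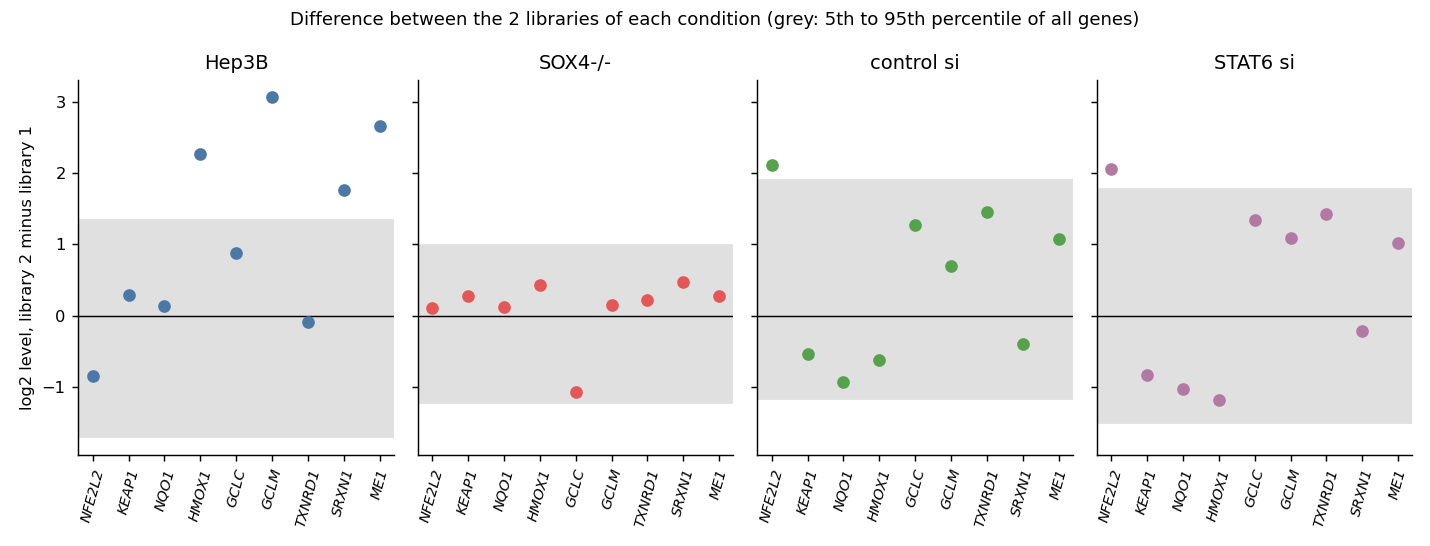
Level in library 2 minus level in library 1 of the same condition, on the log2 scale, for each gene; the grey band runs from the 5th to the 95th percentile of 14313 genes. GCLM, ME1, HMOX1 and SRXN1 lie above the band in Hep3B, none lies outside it in SOX4-/-, and NFE2L2 lies above it in control si (2.12) and STAT6 si (2.05).

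To ask whether loss of SOX4 changed these genes, the libraries labelled SOX4-/- were compared with Hep3B. TXNRD1, which encodes the cytosolic thioredoxin reductase, was lower in both of them, with a fitted level 0.248 times that of Hep3B. HMOX1, which encodes the inducible heme oxygenase, was lower with a value close to the threshold. NFE2L2, KEAP1 and NQO1 had log2 fold changes between -0.12 and -0.08, and for GCLM, SRXN1, ME1 and GCLC the comparison did not pass. All 9 genes passed the filter on low counts. Of these, 2 were called lower and 0 higher, where 1.39% of the 14415 genes tested were called lower, 4.5% higher and 5.89% in either direction. All 9 log2 fold changes were below 0, with a median of -0.93, whereas 49.6% of all genes tested were below 0, with a median of 0.01. In 4 genes (TXNRD1, HMOX1, ME1 and NQO1) both SOX4-/- libraries lay below both Hep3B libraries, and in 0 above. Among 14313 genes this held for 30.1% and 27.5%, so the separation of so few libraries is common. The counts depended on settings and on single libraries. DESeq2 called 3 genes (with ME1, where 15.0% of all genes were called). A fit with the library number as a block and with GC and length offsets called 0 (0.891% of all genes). Another 5 settings called 1. In the fit of all 8 libraries it was HMOX1, and TXNRD1 was not called (438 of 14313 genes called). In the rest it was TXNRD1. These were all genes kept (743 of 16040), at least 10 counts in every library (518 of 12945), robust glmQLFit (898 of 14415), and GC and length offsets (594 of 14246). Without Hep3B library 1, 5 genes were called lower (TXNRD1, HMOX1, ME1, GCLM and SRXN1), 8 were below 0 and the median was -1.60, where 5.57% of all genes were called lower and 15.3% in either direction. Without Hep3B library 2 the calls were TXNRD1 and HMOX1, 6 genes were below 0 and the median was -0.04, where 3.22% of all genes were called lower and 8.89% in either direction. Without SOX4-/- library 1 and without library 2, 0 of the 9 were called, as were only 0.493% and 0.14% of all genes.

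**Figure D3:**
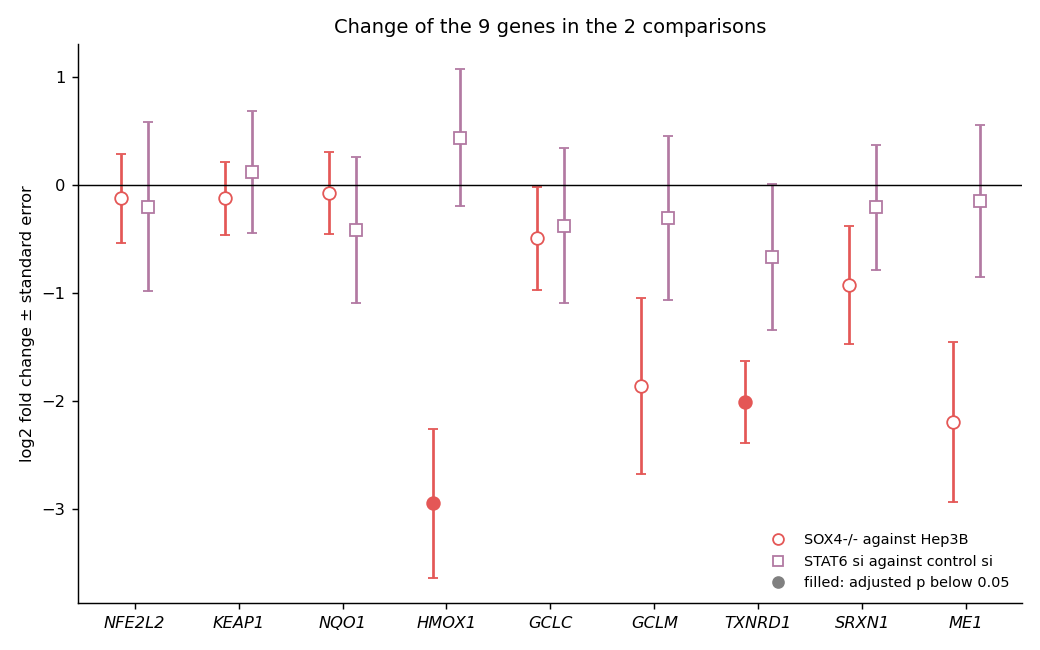
Log2 fold change with its standard error for the 9 genes, in SOX4-/- against Hep3B (circles) and STAT6 si against control si (squares); filled symbols have an adjusted p-value below 0.05 in the edgeR quasi-likelihood F test. TXNRD1 (-2.01) and HMOX1 (-2.95) are the filled points, and the longest error bar among the circles is that of GCLM (0.82).

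TXNRD1 (chr12:104215779-104350307, as all positions on GRCh38) had 557.4 and 523.4 CPM in Hep3B, against 119.2 and 138.5 in SOX4-/-. The pairs were each tight and lay far apart. Its log2 fold change was -2.01 (SE 0.38, adjusted p = 0.0319, edgeR quasi-likelihood F test, adjusted over 14415 genes). Between the libraries numbered 1 the difference in level was -2.22 and between those numbered 2 it was -1.92. Leaving out each library in turn gave values from -2.13 to -1.91. The adjusted p was 0.0103 without Hep3B library 1 and 0.00983 without Hep3B library 2, but 0.241 without SOX4-/- library 1 and 0.214 without SOX4-/- library 2, where the spread came from the Hep3B pair alone. Over 11 other settings the value stayed between -2.07 and -1.92, and 9 of them called the gene (adjusted p from 4.97e-06 to 0.0844). MTHFD2, the mitochondrial folate enzyme that yields NADPH or NADH and that the study examined, had a log2 fold change of -2.21 (SE 0.42, adjusted p = 0.0319 by the same test), with 664.4 and 474.6 CPM in Hep3B against 99.8 and 138 in SOX4-/-.

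The tables list 7 RefSeq transcripts of TXNRD1, of which NM_001093771 starts upstream and the other 6 share a downstream start. Each of the 7 was lower in both SOX4-/- libraries than in both Hep3B libraries. The most abundant, NM_182729, had 222 and 195 CPM in Hep3B against 57 and 62.9 in SOX4-/-, a ratio of means of 0.288. NM_003330 had 96.8 and 102 CPM in Hep3B against 11.5 and 10.1 in SOX4-/- (ratio 0.109). Its share of the gene was lower in both SOX4-/- libraries (9.7% and 7.3%) than in both Hep3B libraries (17.4% and 19.6%). The transcript from the upstream start, whose promoter holds a pair of the ARE cores printed above, had 95.8 and 89.9 CPM in Hep3B against 18.2 and 33.6 in SOX4-/- (ratio 0.279). It made up 17.2% of the gene in both Hep3B libraries and 15.2% and 24.2% in SOX4-/-, so both start sites were lower. How reads were divided among transcripts that share most exons is an estimate, and no test was made on transcripts. EID3 lies inside TXNRD1 on the same strand but had only 11 counts in total over the siRNA libraries, and an antisense RNA overlaps part of TXNRD1. Antisense RNAs also overlap NFE2L2, NQO1 and GCLC, and a coding gene on the same strand overlaps SRXN1 in the GENCODE annotation. The kit keeps strand, but whether the counting used it is not given in the sources used here, so reads of the antisense overlaps cannot be told apart.

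**Figure D4:**
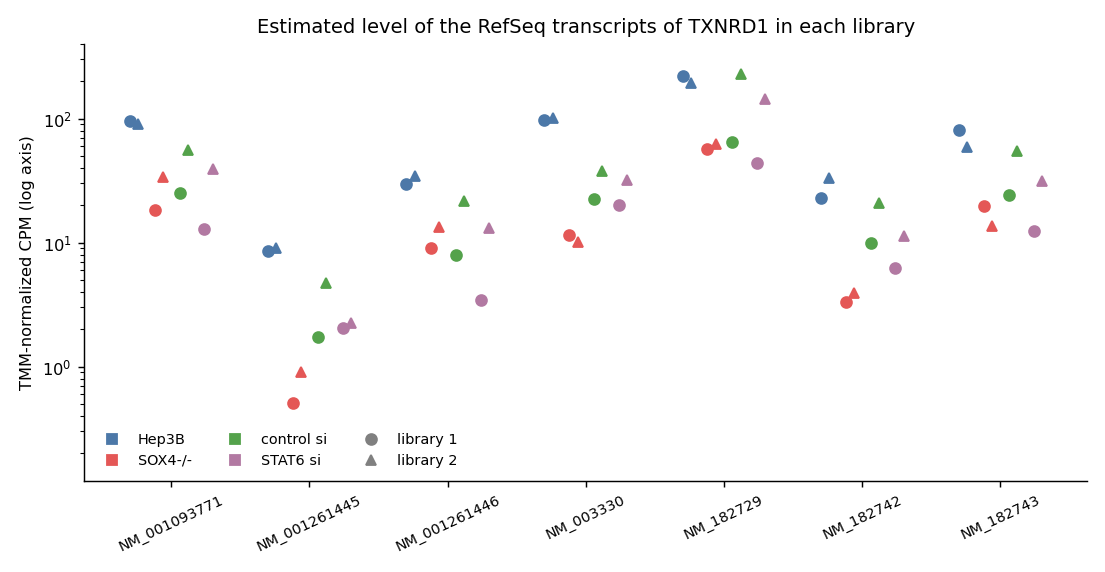
Estimated level of each of the 7 RefSeq transcripts of TXNRD1 in the 8 libraries, as TMM-normalized CPM on a log axis; colors are conditions, circles libraries numbered 1 and triangles libraries numbered 2. For every transcript both SOX4-/- points lie below both Hep3B points, with NM_003330 showing 11.5 and 10.1 against 96.8 and 102.

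HMOX1 (chr22:35381067-35394214), which breaks down heme to iron, carbon monoxide and biliverdin, had 35.8 and 172.5 CPM in Hep3B, against 10.9 and 14.7 in SOX4-/-. The SOX4-/- pair was low and tight, whereas Hep3B library 2 was far above Hep3B library 1. The log2 fold change was -2.95 (SE 0.69, adjusted p = 0.0498, edgeR quasi-likelihood F test). It was -1.45 without Hep3B library 2 (adjusted p = 0.0484) and -3.73 without Hep3B library 1 (adjusted p = 0.00073). It lost the call without SOX4-/- library 1 (-2.75, adjusted p = 0.254) and library 2 (-3.21, adjusted p = 0.248), and 5 of 11 other settings did not call it (adjusted p from 0.000203 to 0.0771). The direction was therefore the same in every one of these fits, and its size rested on which Hep3B library was used.

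GCLC and GCLM encode the catalytic and modifier subunits of glutamate-cysteine ligase, the first enzyme of glutathione synthesis. GCLM (chr1:93885200-93909598) had 12.1 and 102.6 CPM in Hep3B against 14.2 and 15.7 in SOX4-/-. Hep3B library 2 alone was high, and Hep3B library 1 lay below both SOX4-/- libraries. The log2 fold change of -1.87 (SE 0.82, adjusted p = 0.197, edgeR quasi-likelihood F test) became 0.34 without Hep3B library 2 (adjusted p = 0.689) and -2.76 without Hep3B library 1 (adjusted p = 0.00209). GCLC (chr6:53497341-53545129) had 71.1 and 130.4 CPM in Hep3B against 92 and 43.8 in SOX4-/-, with overlapping groups and opposite differences between the libraries numbered 1 (0.37) and 2 (-1.57). Its log2 fold change was -0.49 (SE 0.47, adjusted p = 0.546 by the same test). It ranged from -1.14 to -0.02 when 1 library was left out. Between libraries of a condition both subunits were higher in library 2 in Hep3B, control si and STAT6 si, and within SOX4-/- their differences had opposite signs (0.15 for GCLM and -1.07 for GCLC). GCLM differed 8.47-fold within Hep3B and 1.11-fold within SOX4-/-, and GCLC 1.84-fold and 2.1-fold.

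SRXN1 (chr20:646624-653370), the sulfiredoxin that repairs over-oxidized peroxiredoxins, had 46.9 and 159.3 CPM in Hep3B against 43.3 and 60.2 in SOX4-/-. Hep3B library 1 lay between the SOX4-/- libraries. The log2 fold change was -0.93 (SE 0.55, adjusted p = 0.325, edgeR quasi-likelihood F test). It was 0.17 without Hep3B library 2 (adjusted p = 0.832) and -1.60 without Hep3B library 1 (adjusted p = 0.0209). ME1 (chr6:83210391-83431219), the cytosolic malic enzyme that makes NADPH, had 44.1 and 279.3 CPM in Hep3B against 30.4 and 36.6 in SOX4-/-. Both SOX4-/- libraries were below both Hep3B libraries, narrowly so for Hep3B library 1. The log2 fold change was -2.20 (SE 0.74, adjusted p = 0.116 by the same test), -0.36 without Hep3B library 2 (adjusted p = 0.62) and -3.04 without Hep3B library 1 (adjusted p = 0.00123). DESeq2 called it (adjusted p = 0.0154). GCLM, ME1, HMOX1 and SRXN1 thus shared a high level in Hep3B library 2, which neither NQO1 nor TXNRD1 showed.

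NQO1 (chr16:69709401-69726630), a quinone reductase that uses NADPH or NADH, had 14.6 and 16 CPM in Hep3B against 13.4 and 14.5 in SOX4-/-. All 4 values were close, and the log2 fold change was -0.08 (SE 0.38, adjusted p = 0.921, edgeR quasi-likelihood F test). NFE2L2 (chr2:177230303-177265131) had 325.5 and 181.3 CPM in Hep3B against 216.5 and 232.8 in SOX4-/-, so the SOX4-/- libraries lay between the Hep3B libraries (log2 fold change -0.12, SE 0.41, adjusted p = 0.88). KEAP1 (chr19:10486120-10503378) had 140.5 and 171.8 CPM in Hep3B against 124.5 and 150.6 in SOX4-/-, with overlapping groups (log2 fold change -0.12, SE 0.34, adjusted p = 0.849). With GC and length offsets the value for KEAP1 was -0.60 (adjusted p = 0.284). For these 3 genes no difference was detectable with these libraries, and standard errors of 0.34 to 0.41 leave room for changes of that size. Most counts of NFE2L2 and NQO1 belonged to single transcripts, NM_006164 (87% to 95% of the gene over the 8 libraries) and NM_000903 (86.7% to 96.9%).

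After STAT6 siRNA, 0 of the 9 genes passed, as did 0 of 13554 genes in the edgeR quasi-likelihood F test (0.0%). Of all genes, 14 had an unadjusted p-value below 0.05 and DESeq2 also called 0, with 16 at an unadjusted p below 0.05. None of these 14 was among the 9 genes. STAT6 itself was not called, so the lack of calls does not show a lack of change. This fit left out the library number, although deviations of same-numbered siRNA libraries correlated at 0.832. With the number as a block 62 genes were called, 0 of them among the 9. With the block and offsets for GC content and transcript length 349 were called, 1 of them among the 9 (TXNRD1). The groups overlapped in all 9 genes, where 4.83% of genes had both STAT6 si libraries below both control si libraries and 3.76% above. The log2 fold changes had a median of -0.21, beside -0.03 over all genes tested, and 7 of 9 were below 0. Without control si library 2 the median was 0.17 and 3 were below 0, and without STAT6 si library 2 it was -0.82.

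TXNRD1 had the largest difference of the 9 genes in size. Its level was 155.4 and 425.5 CPM in control si and 101 and 272.9 in STAT6 si, so library 2 was the higher one in both conditions. The log2 fold change was -0.66 (SE 0.68, unadjusted p = 0.343, adjusted p = 1 by the edgeR quasi-likelihood F test). Between the libraries numbered 1 the level differed by -0.62 and between those numbered 2 by -0.64, although the labels do not say what the number marks. With the library number as a block the adjusted p was 0.166 (-0.68), and with the block and offsets for GC content and transcript length it passed (-0.48, adjusted p = 0.00391). MTHFD2 had 167.3 and 494 CPM in control si and 93.5 and 362 in STAT6 si, with a log2 fold change of -0.56 (SE 0.72, adjusted p = 1).

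HMOX1 differed in the other direction, with 66.1 and 43.1 CPM in control si and 107.6 and 47.4 in STAT6 si (log2 fold change 0.44, SE 0.64, adjusted p = 1 by the edgeR quasi-likelihood F test). Only STAT6 si library 1 was above both controls. NQO1 had 58.2 and 30.5 CPM in control si and 46.9 and 22.8 in STAT6 si, a difference in level of -0.31 and -0.42 within numbers 1 and 2. GCLC had 29.6 and 71.5 CPM in control si and 22.4 and 57.1 in STAT6 si, a difference of -0.40 and -0.32. In both genes the difference between the numbered libraries was larger than that between control si and STAT6 si. GCLM (10.7 and 17.5 CPM against 7.43 and 15.8), ME1 (23.5 and 49.6 against 22.3 and 45.3) and SRXN1 (94.7 and 71.9 against 80.6 and 69.2) had log2 fold changes between -0.31 and -0.15. The regulators gave -0.20 for NFE2L2 (53.7 and 233.5 CPM against 49.3 and 204.9) and 0.12 for KEAP1 (302.9 and 209.5 against 372.3 and 208.9). Library 2 was higher for NFE2L2, TXNRD1, GCLC, ME1 and GCLM and lower for KEAP1, NQO1, HMOX1 and SRXN1 in both siRNA conditions.

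Whether the perturbations differed was tested in a fit of all 8 libraries, which called 11 of 14313 genes (0.0769%) and 0 of the 9. HMOX1 was nearest, with a difference between the log2 fold changes of -3.53 (SE 0.98, unadjusted p = 0.00286, adjusted p = 0.249 by the edgeR quasi-likelihood F test). DESeq2 called it (-3.62, adjusted p = 0.0299). The difference was -2.16 for ME1 (SE 1.03, adjusted p = 0.773), -1.67 for GCLM (SE 1.10, adjusted p = 0.953) and -1.43 for TXNRD1 (SE 0.84, adjusted p = 0.899). These errors are large, so the comparison does not show that the perturbations act alike on any of them.

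Levels of different genes were compared per kilobase of transcript. TXNRD1 was the most abundant of the 9 in Hep3B, at 145 CPM per kilobase ± 5.3 (SD, n = 2), ahead of NFE2L2 at 89.3 ± 35.8, HMOX1 at 57.2 ± 53, KEAP1 at 55.3 ± 8.21 and ME1 at 48 ± 49.3. The lowest was NQO1, at 5.61 ± 0.386. In SOX4-/- the order was led by NFE2L2 (79.2 ± 3.91), KEAP1 (48.4 ± 5.91) and TXNRD1 (35.6 ± 4.26), and GCLM was last at 3.27 ± 0.127. In control si and STAT6 si the order was led by KEAP1, at 90.2 ± 24.2 and 102 ± 40.9 CPM per kilobase, and ended with GCLM at 3.02 ± 1.02 and 2.5 ± 1.23. Neighbors in the order of Hep3B overlapped in 7 of 8 steps, and only TXNRD1 (149.1 and 141.6) lay above both values of the next gene, NFE2L2 (114.6 and 63.9). In SOX4-/- 2 of 8 steps overlapped, from SRXN1 to GCLC and from HMOX1 to NQO1, so there NFE2L2, KEAP1 and TXNRD1 were apart from each other. In control si 6 and in STAT6 si 5 of 8 steps overlapped, and ME1 and GCLM at the end of the order were apart in both. The leading KEAP1 overlapped TXNRD1 in control si (107.3 and 73.1 against 41.5 and 113.6). In STAT6 si library 2 KEAP1 was barely above TXNRD1 (72.96 against 72.69).

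Across conditions, by mean CPM, TXNRD1 was highest in Hep3B, followed by control si, STAT6 si and SOX4-/-. Only the step from Hep3B to control si had ranges that did not overlap. HMOX1 was lowest in SOX4-/-, apart from the range of control si, the next condition. NQO1 and KEAP1 were higher in both siRNA conditions than in Hep3B and SOX4-/-, with 30.5 to 58.2 and 22.8 to 46.9 CPM for NQO1 against 13.4 to 16. The siRNA libraries come from another table and were transfected, so the tables cannot be compared as conditions. NFE2L2, GCLC, GCLM and ME1 had overlapping ranges at each step of their order. Among 10987 genes averaging 100 counts or more per library, that with levels most like NFE2L2 over the 8 libraries was PELI1 (root mean square difference of centred log2 levels 0.081). For NQO1 the nearest were PFDN5 (0.107), PILRB (0.123) and ZNF319 (0.154). These distances share the difference between numbered siRNA libraries.

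Around the 9 genes, 7 lists of related genes held 134 genes. In SOX4-/- against Hep3B 123 were tested and 18 were called, 9 higher and 9 lower (14.6%, where 5.89% of all genes were called). The 18 include AKR1C2, AKR1C3, CBR1 and SOD3, which passed the filter through the group where they were high. This share is therefore a description only. With at least 10 counts in every library, 14 of the 18 were tested and 12 called. The 18 were picked by their calls on the same libraries, so this count cannot be set against the 4.0% of all genes called there. After STAT6 siRNA 0 of 122 tested were called. There the library number as a block with GC and length offsets called 2.6% of all genes and gave 2 calls in NADPH production and 1 each in 4 other lists (NRF2 regulators, glutathione, thioredoxin, and conjugation and export). Calls in this and the next paragraphs are from the edgeR quasi-likelihood F test, adjusted by Benjamini-Hochberg over all genes tested. Regulators and partners of NRF2 gave 0 calls of 19, with a median log2 fold change of -0.35. The largest differences there were those of MAFG, a small MAF partner (-1.26, adjusted p = 0.1), TRIM21, a ubiquitin ligase (1.14, adjusted p = 0.184) and BACH1, the repressor that competes with NRF2 at AREs (-1.01, adjusted p = 0.17). DESeq2 called 1 gene of this list, and the edgeR test called 1 without Hep3B library 1 and 3 without Hep3B library 2, where 15.0%, 15.3% and 8.89% of all genes were called.

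Among 19 glutathione genes 5 were called lower and 1 higher (median -0.19). SLC7A11 and SLC3A2 encode the chains of the cystine importer that feeds glutathione synthesis. SLC7A11 had 151.3 and 248.8 CPM in Hep3B against 21.2 and 33.6 in SOX4-/- (log2 fold change -2.81, SE 0.42, adjusted p = 0.02), and SLC3A2 had 973.7 and 1453 against 127.2 and 149.1 (-3.07, SE 0.46, adjusted p = 0.0192). GPX2, a glutathione peroxidase, fell by 3.72 on the log2 scale (135.4 and 67 CPM against 4.87 and 9.99, adjusted p = 0.0189). GSR, which reduces oxidized glutathione with NADPH, fell by 1.57 (148.6 and 181.4 against 42.3 and 64.4, adjusted p = 0.0494), and CHAC1, which degrades glutathione, by 2.05 (161.2 and 230.1 against 39.3 and 51.5, adjusted p = 0.0276). GLRX, a glutaredoxin, rose by 2.40 (2.17 and 2.03 against 13.1 and 8.16, adjusted p = 0.0428). Over the whole list, both SOX4-/- libraries lay below both Hep3B libraries in 6 of 19 genes and above them in 7, beside 30.1% and 27.5% of 14313 genes. The median of the list was 0.12 without Hep3B library 2. Of the genes called, SLC7A11, SLC3A2 and CHAC1 are also known targets of the stress factor ATF4, as are SESN2 and MTHFD2. Whether ATF4 had a part in these values was not tested.

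Of 19 thioredoxin and peroxiredoxin genes only SESN2, a sestrin, was called, lower (-2.46, SE 0.43, adjusted p = 0.0255; 263.4 and 432.1 CPM against 48.7 and 72.5). The median of that list was 0.21, with 12 of 19 genes above 0, and it was 0.039 without Hep3B library 1. Of 18 NADPH-producing genes tested out of 21, MTHFD2 was lower and H6PD, the hexose-6-phosphate dehydrogenase of the endoplasmic reticulum, was higher (2.41, SE 0.40, adjusted p = 0.0241; 35.3 and 20.4 CPM against 146.3 and 139.3). The median was -0.15, and 0.11 without Hep3B library 2. Of 13 iron and heme genes 0 were called, with a median of 0.32. It was 0.58 without Hep3B library 2, where 1 was called, 0.54 without SOX4-/- library 1 and 0.20 without SOX4-/- library 2. The nearest were SLC40A1, the iron exporter (2.08, adjusted p = 0.0608), and BLVRA, which acts on biliverdin after HMOX1 (1.37, adjusted p = 0.0608), both with a sign opposite to that of HMOX1.

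Of 24 conjugation, carbonyl reduction and export genes tested out of 29, 4 were called higher and 2 lower (median 0.17, but 0.65 without Hep3B library 2 and 0.31 without Hep3B library 1). Of these, AKR1C2, AKR1C3 and CBR1 had fewer than 10 counts in each library of a group and passed the filter through the other group, so their calls are given as a description only. The aldo-keto reductase AKR1C1 had 4.61 and 1.88 CPM in Hep3B against 97.4 and 53.6 in SOX4-/- (log2 fold change 4.60, SE 0.60, adjusted p = 0.0152). AKR1C2 had 9 and 5 counts and AKR1C3 1 and 1 in Hep3B, and since these genes are near-identical, reads may have been split among them. GSTM3, a glutathione transferase that also has close relatives, rose by 1.69 (adjusted p = 0.0436). CBR1, a carbonyl reductase that uses NADPH, had 149 and 473 counts in Hep3B and 1 and 0 in SOX4-/-, and UGDH, which makes UDP-glucuronate, fell by 2.08 (363.4 and 394 CPM against 86.8 and 85.1, adjusted p = 0.0256). Of 11 genes of hydrogen peroxide and superoxide removal tested out of 14, 3 were higher and 0 lower, with a median of 1.23 (0.269 to 1.18 when a library was left out, the lowest without SOX4-/- library 2). These were CAT, the catalase (46.7 and 45.4 CPM against 169 and 111.6, 1.67, adjusted p = 0.043), SOD3, an extracellular superoxide dismutase that passed the filter through SOX4-/- (8 and 12 counts in Hep3B against 195 and 161), and CCS, the copper chaperone of SOD1 (1.60, adjusted p = 0.0466). Of the 18 calls in the 7 lists, 16 held without Hep3B library 1 and 16 without Hep3B library 2, where 2298 and 1322 of all genes were called instead of 849, whereas 15 of the 17 still tested were lost without SOX4-/- library 1 and all 18 without SOX4-/- library 2, where 73 and 21 of all genes were called, with a highest adjusted p per gene from 0.054 to 0.348. With at least 10 counts in every library 14 of the 18 were tested and 12 called. Since the 18 were picked by the main fit, this is no comparison with the 4.0% of all genes called there. With the library number as a block and offsets for GC content and transcript length 11 of the 18 calls were lost, among them MTHFD2, GSR, CAT, H6PD and UGDH, and in a fit of all 8 libraries 7 were lost, among them SLC7A11 and MTHFD2, where 0.891% and 3.06% of all genes were called. Of the 10 hepatocyte markers 3 were called higher and 0 lower, where 4.5% of all genes were called higher. The fold change was above 0 in 9 of them, whereas AFP overlapped (28.7 to 135.9 CPM in Hep3B, 27.8 to 65.85 in SOX4-/-). Of the 3 fibroblast markers tested, LUM and PDGFRB were called higher, and LUM had no more than 0.693 CPM in Hep3B. Both leukocyte markers tested had an unadjusted p below 0.05 in the edgeR quasi-likelihood F test and were not called. Their part was not tested.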

How the data were processed

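RNA was extracted with TRIzol and libraries were made with a stranded mRNA kit, per the labels. The authors deposited 2 tables of expected counts per RefSeq transcript, not normalized. Every transcript summed to at least 10 over the 4 libraries of its table. The submitters' processing notes name STAR, Partek and hg38, without versions. Expected counts were summed by gene name and rounded, and the same test was used as planned for counts. Each table was fitted separately with edgeR 4.0.16 under R 4.3.3. Low genes were removed with filterByExpr, libraries were scaled by TMM, and dispersions and the quasi-likelihood F test came from estimateDisp, glmQLFit and glmQLFTest. Genes with a Benjamini-Hochberg adjusted p-value below 0.05 were called. The standard error is the log2 fold change divided by the square root of F. Printed CPM use TMM factors of all 8 libraries, and fold changes those of their own table. Single libraries were compared as log2 CPM, to which a prior count of 2 had been added. The common dispersion was 0.145 in the SOX4-/- table and 0.243 in the siRNA table. SOX4-/- cells came from a pair of lines. For the other conditions nothing says that the libraries came from separate cultures, so there p-values measure only the spread between libraries, which may be technical.

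Genes named are the 9 genes, and of each list every gene called or otherwise up to 3 with the largest change and a mean of at least 100 counts, with SOX4, STAT6, MTHFD2 and the 3 genes nearest to NFE2L2 and to NQO1. Some of the genes nearest to NFE2L2 are not reported here. The genes and lists were chosen with earlier results of these data known. Other settings tried were the DESeq2 1.42.0 Wald test, upper-quartile or median-of-ratios scaling, all genes kept or only those with 10 counts in each library, robust and non-legacy glmQLFit, the library number as a block, GC and length offsets (mgcv 1.9.3), both of these, a fit of all 8 libraries, and leaving out each library. The steps were tested on simulated data. Positions are those of the tables, with the end 1 base earlier to match RefSeq.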

Additional observations from a re-analysis of the deposited data

How the results depend on the processing

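In SOX4-/- against Hep3B 849 genes were called. The count was 2160 with DESeq2, 518 with at least 10 counts in every library, 438 in a fit of all 8 libraries, 127 with a replicate block and offsets for GC content and transcript length, and 21 to 2298 when a library was left out. After STAT6 siRNA it was 0, but 62 with the library number as a block and 349 with the block and offsets, which called TXNRD1 (log2 fold change -0.48, adjusted p = 0.00391). The difference between the perturbations called 11 genes, and 5 with upper-quartile factors, 166 with DESeq2 and 97 with the block. The block gave 982 genes in SOX4-/- against Hep3B. Deviations of same-numbered libraries correlated at -0.072 in that table and 0.832 in the siRNA table, across 14313 genes, and the labels do not say what the number marks.

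In SOX4-/- against Hep3B, NFE2L2 changed sign to 0.06 with the block and offsets. Leaving out a library gave -0.50 to 0.33 for NFE2L2, -0.30 to 0.0033 for KEAP1, -2.76 to 0.34 for GCLM and -1.60 to 0.17 for SRXN1. After STAT6 siRNA, KEAP1 was -0.12 with offsets and also with block and offsets, and ME1 0.09 and 0.08. Leaving out a library there, which sets unequal library numbers against each other, gave -1.65 to 1.24 for NFE2L2, -0.29 to 0.47 for KEAP1, -0.96 to 0.19 for NQO1, -0.20 to 0.88 for HMOX1, -1.28 to 0.41 for GCLC, -1.03 to 0.17 for GCLM, -1.63 to 0.25 for TXNRD1, -0.38 to 0.06 for SRXN1 and -0.82 to 0.50 for ME1. The difference for NFE2L2 was -0.04 with median-of-ratios factors and with DESeq2. Where a library was left out, the lone library was assumed to vary like the other pair. With 2 libraries a condition, differences within the spread of these pairs could not be detected.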

Other observations

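The Hep3B libraries also differed from each other in some genes of the 7 lists. Of 124 list genes present in both tables, 21 (16.9%) were more than 1 higher on the log2 scale in Hep3B library 2 and 13 (10.5%) more than 1 higher in library 1, beside 10.1% and 13.2% of 14313 genes, and the median difference of the list genes was 0.125. The following genes were chosen after their values were seen. Higher in library 2 were the ferritin light chain FTL (1544 and 5889 CPM in libraries 1 and 2), the heavy chain FTH1 (1031 and 2152), SOD1 (58.3 and 250.7), PRDX1 (218.1 and 507.4), TXN (40.8 and 83.2) and TXNIP, an inhibitor of thioredoxin (0.259 and 8.91). Lower in library 2 were the small MAF genes MAFF (358.6 and 20.4) and MAFK (560.7 and 95), the mitochondrial superoxide dismutase SOD2 (216 and 44.6), the nucleoredoxin NXN (169.2 and 69.3), the transketolase TKT (131 and 63.3), the aldo-keto reductase AKR1B10 (4.14 and 0.495) and GPX2 (135.4 and 67). No test was made, since a pair of libraries of 1 condition gives no replicate of this difference.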
